A study of Mus musculus with 4 samples.

Results

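The odorant receptor genes of mouse chromosomes 1, 3, 4 and 6 were followed here in mature olfactory sensory neurons from Nd1 and control mice. They were taken as all loci of the deposited table with a plain Olfr symbol on these chromosomes, with Olfr16 left out. This gave 80 loci for 79 symbols, because Olfr437 is listed for 2 loci with the same coordinates, out of 1084 such receptor loci and 28168 loci in all. Chromosome 1 holds 26 of the loci, chromosome 3 holds 2, chromosome 4 holds 24 and chromosome 6 holds 28.

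An odorant receptor is a G protein-coupled receptor in the cilia of an olfactory sensory neuron, where it couples through the olfactory G protein and adenylate cyclase to a cyclic nucleotide-gated channel. Each mature neuron normally transcribes a single receptor gene from a single allele, and the other receptor genes stay in silent chromatin. The level of a receptor in RNA from many sorted neurons therefore depends on how many neurons chose it and on how much of its RNA each of them holds. The genes lie in clusters of related copies. Those on the chromosomes studied here belong to class II, the larger of the receptor classes of land vertebrates.

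RNA was sequenced from sorted mature neurons in 4 libraries, 2 per group. The series title describes mice that express double-stranded RNA encoded in their genome, and the design text describes lines with neurodegeneration. Both Nd1 libraries came from mice labelled Nd1+/- with OMP-IRES-tTA+/- and OMP-IRES-GFP+/-, at 212 days of age (replicate 1) and 87 days (replicate 2). The control of replicate 1 was Nd1+/- without the tTA allele (OMP-IRES-tTA-/-) at 212 days, and the control of replicate 2 was Nd1-/- with OMP-IRES-tTA+/- at 87 days. All 4 carried OMP-IRES-GFP+/-. The transcriptional activator tTA is driven by Omp, a gene of mature olfactory neurons, and the number of mice behind a library is not given in the sources used here. Pooling over libraries means that the control combines 2 genotypes, and each group combines 2 ages.

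The table gives 1 FPKM value per group, which the authors pooled over its libraries. FPKM scales the fragments of a transcript to its length and to the library's mapped fragments. There is no value per library, so neither the spread between replicates nor the depth of a library is known. All levels below are these pooled FPKM values, and the log2 ratios are those of Nd1 over control. The words rose and fell stand for loci with q under 0.05 in the authors' Cuffdiff test, as listed in their deposited table.

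Every one of the 80 loci had a lower value in Nd1 than in control. Of the 78 that were tested, 64 fell, none rose and 14 did not pass. Among the 14841 tested loci of every kind, 19.2% fell and 15.1% rose. Since every value was lower, no receptor could count as higher at an unadjusted p under 0.05 in the authors' Cuffdiff test either. The median log2 ratio was -3.01 over the 76 tested loci above 0 in both groups, an 8.03-fold lower level, with quartiles at -4.00 and -1.33. The same median was -3.19 over the other odorant receptors and -0.04 over loci that are no odorant receptor. In bulk RNA, fewer neurons that express a receptor and less receptor RNA per neuron cannot be told apart.

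The summed level of the 80 loci was 534 FPKM in control and 119 in Nd1, which is 22.2% of the control value. For the 1004 other receptor loci the Nd1 sum was 18.7% of the control sum. In control 69 loci reached 1 FPKM and 15 reached 10 FPKM. In Nd1 28 loci reached 1 FPKM, and Olfr449 was the single locus above 10 FPKM. The ratios covered a wide range. Of the 76 loci 38 were at least 8-fold lower, while 14 (18.4%) were less than 2-fold lower, against 9.53% of the other receptors. The share that fell was 82.1% here and 88.7% in the other receptors, a difference that was not tested. Under quantile normalization Olfr270, Olfr456 and Olfr458 were higher in Nd1. The other scalings tried could not change a sign. Pseudocounts and the filter on level keep it, and centring moved each ratio by 0.04, less than the smallest fall (-0.10).

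**Figure D1:**
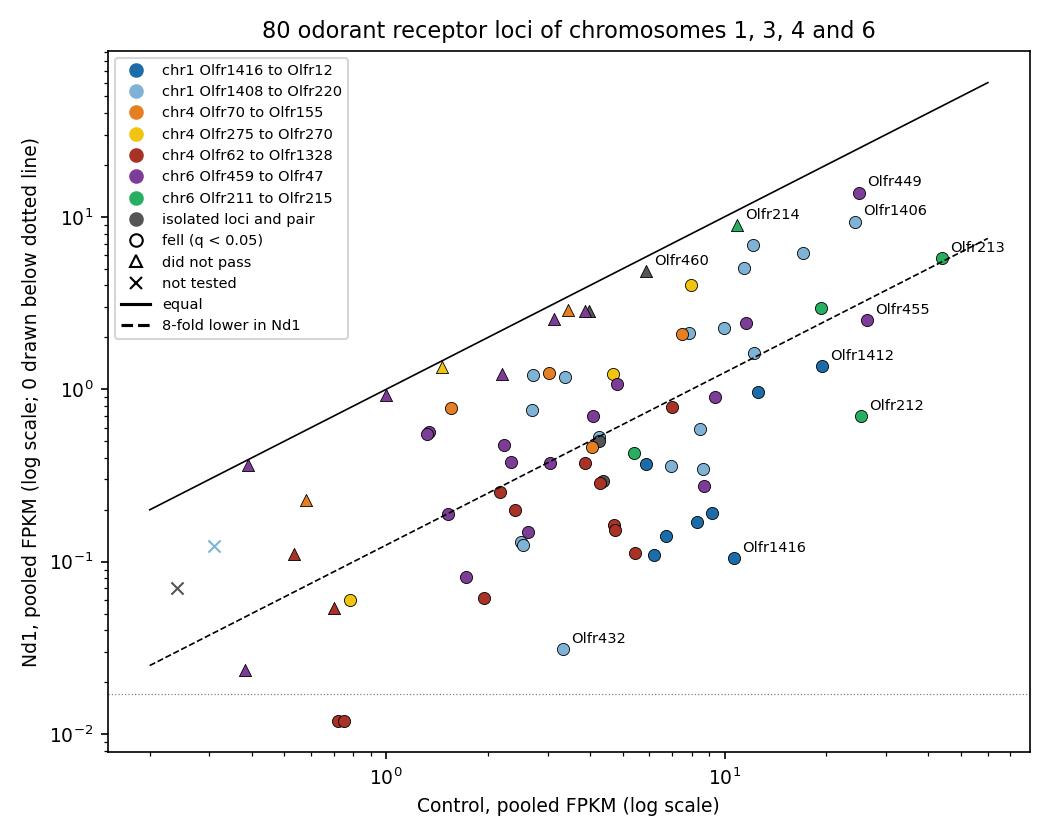
Pooled FPKM of each of the 80 receptor loci in control (x axis) and Nd1 (y axis), both on log scales, coloured by cluster; circles fell, triangles did not pass, crosses were not tested, and the 2 loci listed at 0 in Nd1 stand below the dotted line. All points lie under the line of equal values, with Olfr449 at the top (13.8 FPKM in Nd1) and Olfr432 near the bottom (0.0310 FPKM).

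Mature neuron markers were far above the receptors in both groups and were lower in Nd1. The 8 marker genes summed to 16565 FPKM in control and 6654 in Nd1, and 7 of the 7 tested fell, with Omp at 4087 and 605 FPKM. The tTA and GFP alleles are named for Omp, and the control of replicate 1 lacks the tTA allele that the other libraries carry. The GFP allele is carried by all 4 libraries. In the pooled Omp values an effect of the tTA allele cannot be told apart from a difference between the groups. All 6 markers of immature neurons rose, from a sum of 367 to 745 FPKM. Basal cell markers fell in 3 of 3 tested (sum 12.3 to 6.33 FPKM), gland and respiratory markers in 3 of 3 (202 to 75.9 FPKM), leukocyte markers in 4 of 5 (27.8 to 7.14 FPKM) and sustentacular markers in 2 of 6 (48.2 to 36.2 FPKM). No marker with a locus in the table was listed at 0. The part of these shifts in the fall of the receptors was not tested.

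Odorant receptor loci separated by at most 1 Mb were joined into clusters, which gave 11 groups. Of these, 7 hold at least 3 loci, 1 is a pair and 3 are isolated genes. The median log2 ratio was below 0 in all 7 clusters but ran from -5.57 to -1.32. Of the 34 receptor clusters in the whole table with at least 3 tested loci, the cluster from Olfr1416 to Olfr12 on chromosome 1 had the lowest median. The clusters from Olfr275 to Olfr270 and from Olfr70 to Olfr155 on chromosome 4 stood at places 32 and 33. The first place of the chromosome 1 cluster was the same with a pseudocount of 1 or 0.1, after quantile normalization, after centring, with a mean of at least 1 FPKM and by summed FPKM.

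**Figure D2:**
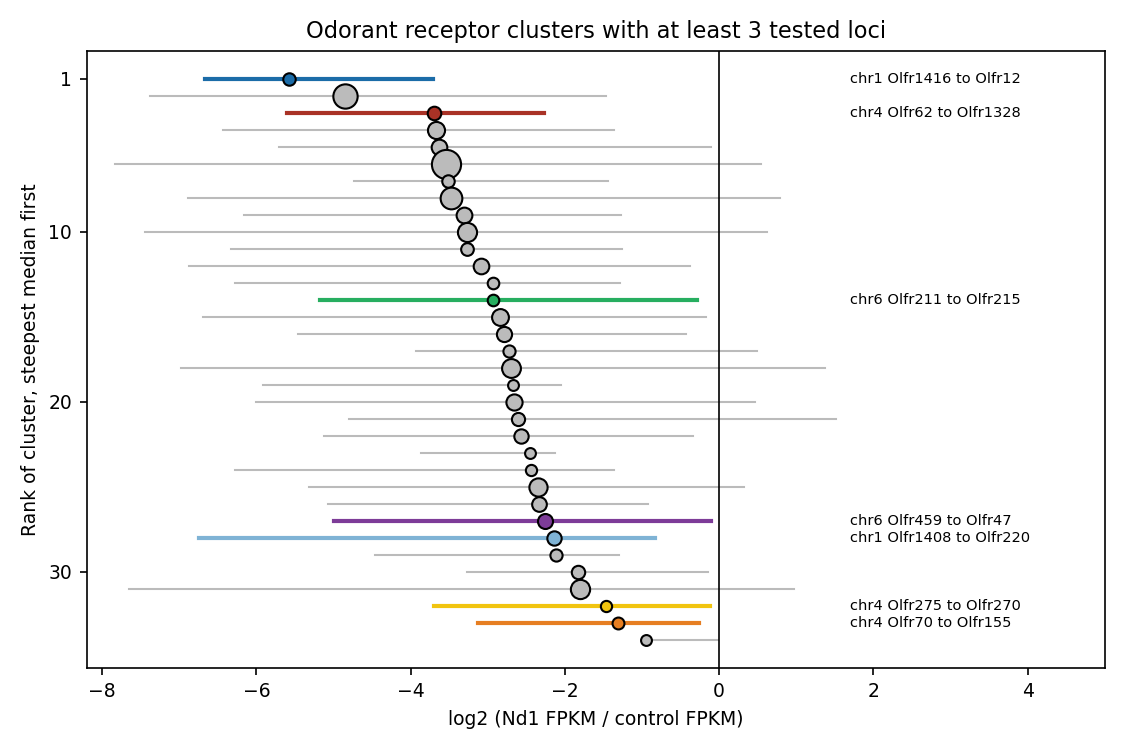
Median (circle, larger for more tested loci) and full range (line) of the log2 ratio of Nd1 over control FPKM for the 34 receptor clusters with at least 3 tested loci, ordered by median; coloured clusters are those of chromosomes 1, 4 and 6 described here and grey ones lie elsewhere. The chromosome 1 cluster from Olfr1416 to Olfr12 stands first at -5.57, and the chromosome 4 clusters at -1.46 and -1.32 stand at places 32 and 33.

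The cluster from Olfr1416 to Olfr12 covers mm9 chr1:94376258-94517578 and holds 8 receptors. All 8 fell, by 13.1-fold to 101-fold, and their sum went from 78.8 to 3.41 FPKM. Olfr1416 stood at 10.7 FPKM in control against 0.105 in Nd1, a log2 ratio of -6.67 with q = 9.33e-11 in the authors' deposited table. The next 3 genes along the chromosome had almost the same ratio. Olfr1415 went from 9.16 to 0.192 FPKM, Olfr1414 from 6.72 to 0.142 and Olfr1413 from 8.26 to 0.171, which is between 47.4-fold and 48.4-fold lower. Olfr1410 had a similar ratio, from 6.17 to 0.109 FPKM. The Nd1 values of Olfr1416 and Olfr1410, times their lengths, are 3.41 and 3.65 times the lowest non-zero such product among receptor loci under 1100 bases. For Olfr1415 and Olfr1413 these multiples are 6.22 and 6.38. These folds and the gaps between them therefore rest on values near the lowest level. Smaller falls were those of Olfr1412, the most abundant of the cluster (19.4 to 1.36 FPKM), Olfr1411 (5.87 to 0.370 FPKM) and Olfr12 at the far end (12.6 to 0.962 FPKM). In control these 8 genes supplied 14.8% of the summed FPKM of all 80 loci, and in Nd1 2.87%.

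Several of these genes are close copies, so it matters how far reads could tell them apart. The open reading frames of Olfr1416 and Olfr1415, taken from GENCODE transcripts, are 94.5% identical with a longest shared run of 164 bases, and Olfr1414 is 92.7% identical to Olfr1416. A read inside a shared run cannot be assigned to a single gene, and the sources used here do not say how the authors counted such reads. Of the stretches of 90 bases that align without a gap in all genes shown, the one in which Olfr1416 and Olfr1415 differ most is given, at positions 799 to 888 of each frame counted from the start codon, with capitals where a gene differs from Olfr1416.
Olfr1416: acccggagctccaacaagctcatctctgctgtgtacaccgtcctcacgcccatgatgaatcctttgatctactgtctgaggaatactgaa
Olfr1415: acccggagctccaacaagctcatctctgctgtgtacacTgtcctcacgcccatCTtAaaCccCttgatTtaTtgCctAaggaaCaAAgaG
Olfr1414: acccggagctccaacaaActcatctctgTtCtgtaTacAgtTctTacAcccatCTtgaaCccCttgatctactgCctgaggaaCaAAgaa
Olfr1415 has 14 differences from Olfr1416 in this stretch and Olfr1414 has 16. Over all 77 symbols with a reading frame of at least 800 bases, the closest receptor was on median 82.5% identical. It was at least 90% identical for 29 of them and at least 95% for 7, and for 61 it lay in the same cluster.

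The larger chromosome 1 cluster runs from Olfr1408 to Olfr220 at mm9 chr1:175060414-176379733 with 18 loci. All 17 tested loci fell, the other, Olfr248, not being tested (0.310 FPKM in control against 0.123 in Nd1). The median log2 ratio was -2.14, and the sum went from 140.7 to 38.8 FPKM, or 27.6% of control. Within it the ratios spread over most of the range of the set. Olfr432 was the steepest, at 3.32 FPKM in control against 0.0310 in Nd1, a log2 ratio of -6.74 with q = 0.000186 in the authors' deposited table. Its Nd1 value times its length is 1.01 times the lowest non-zero such product among short receptor loci, so its ratio rests on a value at the lowest level listed for them. Olfr1408, at the other end, fell from 12.1 to 6.83 FPKM, a log2 ratio of -0.83. The next loci along the chromosome differed from it and from each other.
Olfr1406 went from 24.3 to 9.38 FPKM, Olfr218 from 6.95 to 0.358 and Olfr1404 from 12.2 to 1.62, falls of 2.59-fold, 19.4-fold and 7.52-fold.

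Further along this cluster steep and shallow falls lay side by side, and the loci are grouped here by their values, with no test of their order. Olfr433 fell from 2.50 to 0.131 FPKM, and after Olfr432 came Olfr430 (4.25 to 0.532 FPKM). The next 3 fell less, Olfr429 from 2.70 to 0.762 FPKM, Olfr426 from 3.37 to 1.17 and Olfr231 from 7.84 to 2.11, each under 4-fold. Then Olfr424 (8.63 to 0.343 FPKM), Olfr421 (2.53 to 0.125 FPKM) and Olfr420 (8.48 to 0.587 FPKM) fell 14.4-fold to 25.2-fold. At the end of the cluster Olfr419 went from 17.0 to 6.17 FPKM, Olfr417 from 2.71 to 1.21, Olfr414 from 9.99 to 2.26 and Olfr220 from 11.4 to 5.03, between 2.24-fold and 4.41-fold lower. Olfr1406, Olfr1408, Olfr419 and Olfr220 were among the 8 most abundant receptors of the set in Nd1. Olfr16, a well-studied receptor 172 kb before Olfr1408 that is not part of the set, went from 19.8 to 1.94 FPKM.

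**Figure D3:**
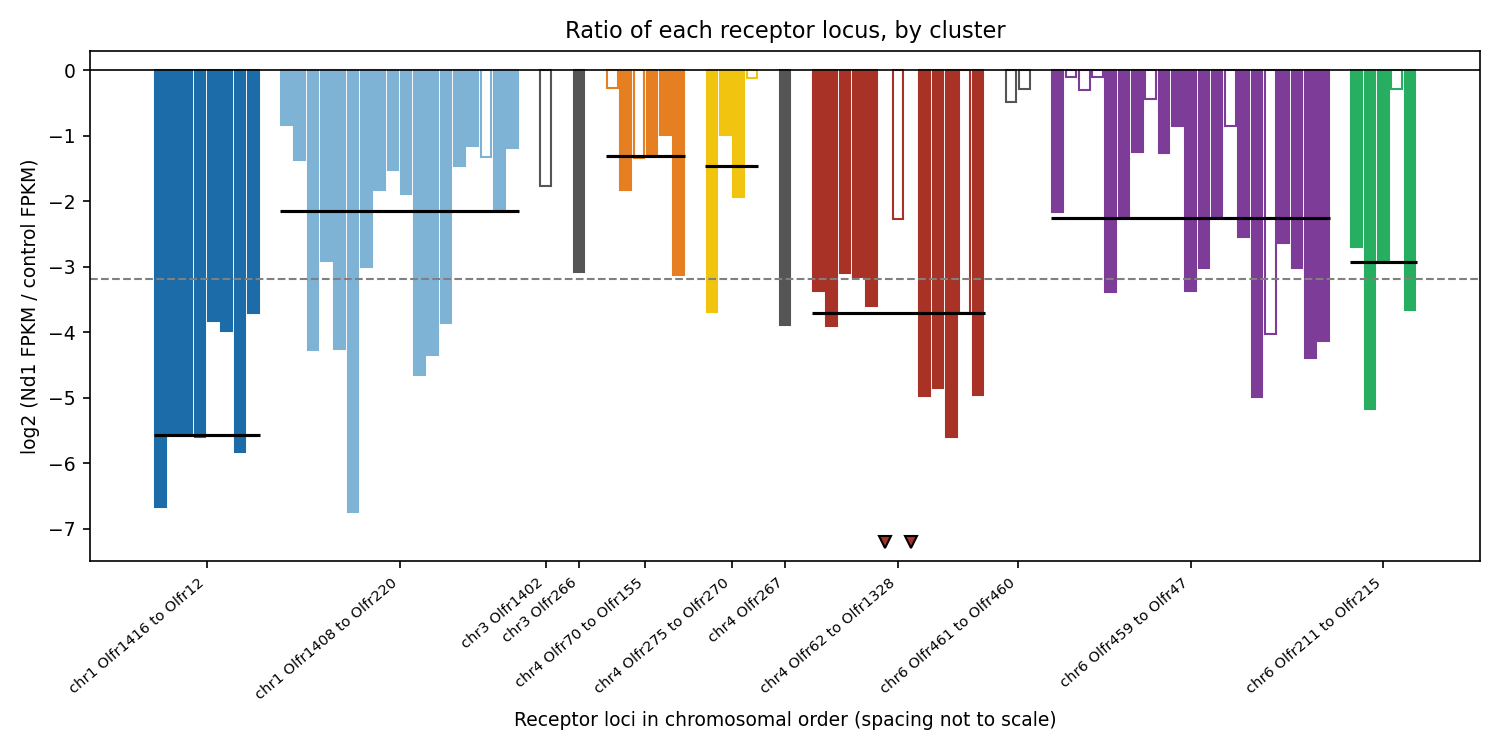
Log2 ratio of Nd1 over control FPKM (y axis) of each receptor locus in chromosomal order (x axis, spacing not to scale), grouped and coloured by cluster; filled bars fell, open bars did not pass or were not tested, triangles mark the 2 loci listed at 0 in Nd1, black lines are cluster medians and the dashed line is the median of the other odorant receptors (-3.19). The bars of the first chromosome 1 cluster all reach below -3.7, and both steep and shallow bars stand along the second chromosome 1 and the large chromosome 6 clusters.

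Chromosome 3 holds a pair of isolated receptors 9.41 Mb apart. Olfr266 (mm9 chr3:106624525-106625475) fell from 4.27 to 0.503 FPKM, 8.49-fold. Olfr1402 stood at 0.241 FPKM in control against 0.0705 in Nd1 and was not tested. On chromosome 4 the isolated Olfr267 (mm9 chr4:58797651-58798592) fell from 4.36 to 0.295 FPKM, 14.8-fold. Both isolated genes that were tested lay below the median log2 ratio of the set.

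The clusters of chromosome 4 differed in their medians. In the cluster from Olfr62 to Olfr1328, at mm9 chr4:118338124-118607445, 11 of 13 loci fell and the sum went from 39.3 to 2.55 FPKM, or 6.50% of control. No gene of this cluster reached 1 FPKM in Nd1. Olfr1340, the most abundant in control, went from 6.995 to 0.787 FPKM, and Olfr1330 showed the steepest ratio, from 5.42 to 0.112 FPKM (48.4-fold, q = 1e-07 in the authors' deposited table). Olfr62 (3.88 to 0.373 FPKM), Olfr1342 (4.29 to 0.286 FPKM), Olfr1341 (2.17 to 0.255 FPKM), Olfr1340 and Olfr1339 (2.41 to 0.199 FPKM) were 8.52-fold to 15.0-fold lower. Olfr1333 (1.95 to 0.0619 FPKM), Olfr1331 (4.71 to 0.163 FPKM), Olfr1330 and Olfr1328 (4.76 to 0.152 FPKM) were 28.9-fold to 48.4-fold lower. Their Nd1 values times length were 2.04 to 5.38 times the lowest non-zero such product among short receptor loci. Their folds therefore rest on values near the lowest level.

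The remaining members of that cluster were weakly expressed in control. Olfr1338 (0.720 FPKM) and Olfr1335 (0.751 FPKM) fell and were listed at 0 in Nd1, so no fold is given. Olfr1337 (0.533 FPKM in control against 0.110 in Nd1, 4.83-fold lower) and Olfr1329 (0.699 FPKM in control against 0.0537 in Nd1, 13.0-fold lower) did not pass. Since the median leaves out the 2 loci at 0, the cluster's -3.70 is taken over 11 loci. With a pseudocount of 1 the median of this cluster was -1.51 and its place among the 34 clusters moved from 3 to 18. The frames of Olfr1331 and Olfr1333 are 96.1% identical, and those of Olfr1328 and Olfr1337 93.7%, so their values may share reads.

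The clusters from Olfr70 to Olfr155 (mm9 chr4:43707872-43868335) and from Olfr275 to Olfr270 (mm9 chr4:52838271-52984439) had medians of -1.32 and -1.46, with sums of 20.1 and 7.70 FPKM for the first and 14.9 and 6.66 FPKM for the second. In the first, 4 of 6 loci fell. Olfr155 fell most, from 4.05 to 0.464 FPKM, and Olfr71, the most abundant, went from 7.48 to 2.10 FPKM. Olfr156 (3.03 to 1.24 FPKM) and Olfr157 (1.55 to 0.783 FPKM) fell 2.44-fold and 1.98-fold. Olfr70 (3.46 FPKM in control against 2.88 in Nd1) and Olfr159 (0.579 FPKM in control against 0.228 in Nd1) did not pass, with q = 0.475 and 0.124 in the authors' deposited table. In the second cluster 3 of 4 fell. These were Olfr273, the most abundant (7.97 to 4.02 FPKM), Olfr272 (4.69 to 1.22 FPKM) and the weakly expressed Olfr275 (0.781 to 0.0604 FPKM). The fourth, Olfr270, stood at 1.46 FPKM in control against 1.35 in Nd1, a log2 ratio of -0.11 that was 0.20 after quantile normalization, and did not pass.

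Chromosome 6 carries the receptors with the highest levels in either group. In the compact cluster from Olfr211 to Olfr215 (mm9 chr6:116443629-116532962) 4 of 5 loci fell, and the sum went from 104.6 to 18.8 FPKM. Olfr213 was the most abundant of all 80 loci in control and went from 43.8 to 5.74 FPKM, a log2 ratio of -2.93 with q listed as 0 in the authors' deposited table. Its neighbour Olfr212 had the third highest control level and had a steeper ratio, from 25.2 to 0.696 FPKM (36.3-fold against 7.64-fold). Olfr211 went from 19.3 to 2.96 FPKM and Olfr215 from 5.39 to 0.427 FPKM. Between Olfr213 and Olfr215 lies Olfr214, which stood at 10.9 FPKM in control against 8.96 in Nd1 and did not pass (q = 0.452 in the authors' deposited table). Olfr214 ranked 14 of 80 in control and 3 of 80 in Nd1.

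The genes of this cluster show both a close pair and a distant neighbour. The frames of Olfr212 and Olfr213 are 96.1% identical with 38 differences and a longest shared run of 114 bases. Olfr214 is 71.7% identical to Olfr213 and shares no run longer than 17 bases with it. Positions 337 to 426 of the Olfr213 frame are shown, the gap-free stretch of 90 bases in all 3 genes with the most differences between Olfr213 and Olfr212, with capitals where a gene differs from Olfr213.
Olfr213: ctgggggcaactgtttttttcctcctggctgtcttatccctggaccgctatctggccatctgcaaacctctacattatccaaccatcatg
Olfr212: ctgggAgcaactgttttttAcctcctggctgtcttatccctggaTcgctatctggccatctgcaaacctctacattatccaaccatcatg
Olfr214: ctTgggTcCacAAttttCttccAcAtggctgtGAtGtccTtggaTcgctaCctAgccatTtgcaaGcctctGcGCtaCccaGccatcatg
Olfr212 has 3 differences in this stretch and Olfr214 has 22. Reads of Olfr212 and Olfr213 may therefore be split between them in a way the table does not show, and their separate ratios are uncertain.

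The pair Olfr461 and Olfr460 (mm9 chr6:40494035-40522331) did not pass in either gene. Olfr461 stood at 3.98 FPKM in control against 2.86 in Nd1, and Olfr460 at 5.85 FPKM in control against 4.83 in Nd1, with q = 0.26 and 0.513 in the authors' deposited table. Olfr460 ranked 31 of 80 in control and 8 of 80 in Nd1. Their summed level in Nd1 was 78.1% of control, and a missed threshold does not show that the level was unchanged.

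The largest cluster by number of loci runs from Olfr459 to Olfr47 at mm9 chr6:41721352-43186574. Here 15 of 21 loci fell and 6 did not pass, and the sum went from 117.0 to 32.4 FPKM. Olfr455 and Olfr449 led it in control. Olfr455 fell from 26.4 to 2.53 FPKM (10.4-fold). Olfr449 fell from 24.9 to 13.8 FPKM, 1.81-fold, and was the most abundant of the 80 loci in Nd1. The control level of Olfr455 was 1.06 times that of Olfr449, while in Nd1 Olfr449 stood 5.46 times higher than Olfr455.

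Gaps over 0.1 Mb, a split chosen after the values were seen, divide this cluster into runs with different medians. In the first, with a median log2 ratio of -0.20, Olfr458 (0.998 FPKM in control against 0.927 in Nd1), Olfr457 (3.14 FPKM in control against 2.56 in Nd1) and Olfr456 (0.392 FPKM in control against 0.365 in Nd1) did not pass, and Olfr455 beside them fell. The frames of Olfr456 and Olfr457 are 95.8% identical. The second run, from Olfr453 to Olfr444, had a median log2 ratio of -1.26 and 7 of 9 falls. Olfr453 fell from 2.23 to 0.472 FPKM, Olfr38 from 1.33 to 0.564, Olfr450 from 1.32 to 0.552 and Olfr446 from 11.6 to 2.42. Steeper falls in the same run were those of Olfr448 (9.38 to 0.902 FPKM) and Olfr447 (1.53 to 0.189 FPKM). Olfr452 (3.86 FPKM in control against 2.85 in Nd1) and Olfr444 (2.20 FPKM in control against 1.22 in Nd1) did not pass.

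In the third run, from Olfr441 to Olfr47, 6 of 7 loci fell with a median log2 ratio of -4.03, and the sum went from 22.9 to 1.98 FPKM. Olfr437 fell most, from 8.72 to 0.274 FPKM (31.8-fold), while the other locus of that symbol, listed with the same coordinates, was listed at 0.382 and 0.0234 FPKM and did not pass. Reads of these 2 loci may be divided between them. The run's median of -4.03 is the ratio of the locus that did not pass. Olfr434 (1.72 to 0.0813 FPKM) and Olfr47 (2.62 to 0.149 FPKM) fell 21.1-fold and 17.6-fold. Their Nd1 values times length were 2.72 and 4.97 times the lowest non-zero such product among short receptor loci. Olfr435 (3.05 to 0.376 FPKM), Olfr13 (2.34 to 0.377 FPKM) and Olfr441 (4.10 to 0.701 FPKM) fell 8.12-fold, 6.20-fold and 5.85-fold. Olfr459, alone before the first run, fell from 4.81 to 1.08 FPKM. The pseudogene locus Olfr237-ps1, which lies between Olfr441 and Olfr437, fell from 15.0 to 3.85 FPKM.

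Olfr441 and Olfr444 are 93.5% identical in their frames, and of the pair Olfr441 fell and Olfr444 did not pass, a difference between them that was not tested. Positions 389 to 478, the gap-free 90 bases that hold the most differences, are shown with capitals where Olfr441 differs from Olfr444.
Olfr444: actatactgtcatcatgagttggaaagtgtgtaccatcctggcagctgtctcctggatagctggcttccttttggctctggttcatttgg
Olfr441: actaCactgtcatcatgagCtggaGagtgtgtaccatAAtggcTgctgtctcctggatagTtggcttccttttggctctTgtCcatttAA
They differ at 11 of these positions and share a longest run of 85 bases. Pairs within a cluster were formed from tested loci above 0 in both groups that have a reading frame, with each symbol taken once. Over these 410 pairs the absolute difference of the log2 ratios had a median of 1.10 in the 52 pairs of at least 80% identity. It was 1.59 in the 358 other pairs. In the 61 pairs of neighbours it was 1.18, with a highest value of 3.74, and over all 410 pairs it was 1.51. Untested loci and those at 0 were skipped, so 1 may lie between neighbours, as Olfr1338 does between Olfr1339 and Olfr1337. Pairs share genes and reads, so this is a description only.

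The order of abundance changed between the groups. In control the 8 highest receptors were, in descending order, Olfr213, Olfr455, Olfr212, Olfr449, Olfr1406, Olfr1412, Olfr211 and Olfr419. In Nd1 they were Olfr449, Olfr1406, Olfr214, Olfr1408, Olfr419, Olfr213, Olfr220 and Olfr460. Both lists hold 4 of the same genes, Olfr449, Olfr1406, Olfr419 and Olfr213. Across the 76 tested loci above 0 the Spearman correlation of control and Nd1 levels was 0.50, and that of the control level with the log2 ratio was -0.16. Both are across genes of the same 2 pooled columns, which share each gene's length and paralogs, and carry no test.

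Genes that lie among or beside the receptors were counted in the same way. Tested named loci inside the 7 clusters, and up to 3 within 1 Mb on each side, gave 48 loci, 10 of them inside, with a median log2 ratio of -0.05. Named loci inside that were not tested are left out. Of the 48 loci, 11 fell and 8 rose, or 39.6% called, where 34.4% of all tested loci were called in either direction. Of the 6 such loci beside the steepest cluster 2 fell and 4 did not pass. The nearest on either side and Twist2 were named after their values were seen. Ndufa10, a subunit of mitochondrial complex I that ends 5.92 kb before Olfr1416, stood at 47.0 FPKM in control against 44.1 in Nd1, and Myeov2, 16.1 kb after Olfr12, at 33.8 FPKM in control against 33.7 in Nd1. Neither passed. Gpc1, a heparan sulfate proteoglycan 211 kb from that cluster, fell from 11.7 to 8.30 FPKM. Twist2, a basic helix-loop-helix transcription factor 632 kb before Olfr1416, fell from 0.718 to 0.0294 FPKM, and its log2 ratio of -4.61 was the lowest of the 48 loci. Both values were under 1 FPKM, so this ratio rests on low levels and drops out with a mean of at least 1 FPKM.

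Inside the larger chromosome 1 cluster Cadm3, a cell adhesion molecule, rose from 32.0 to 71.1 FPKM. Fam115a, inside the large chromosome 6 cluster between Olfr455 and Olfr453, rose from 5.81 to 16.02 FPKM. Beside the chromosome 6 cluster from Olfr211 to Olfr215, Zfp422, a zinc finger gene, rose from 1.29 to 3.70 FPKM. The locus 8430408G22Rik on the same side rose from 0.783 to 1.46 FPKM, and its listed coordinates are also those of Rassf4. After Olfr270, Abca1, a cholesterol exporter, rose from 0.423 to 1.29 FPKM and the choline transporter Slc44a1 from 6.72 to 9.10 FPKM. Before Olfr62, Wdr65 fell from 20.6 to 13.2 FPKM, with coordinates that it shares with another locus, and after Olfr1328 the zinc finger gene Zfp691 fell from 7.92 to 5.47 FPKM. Near Olfr70, Hint2 fell from 26.3 to 16.3 FPKM and Tmem8b from 6.37 to 5.04 FPKM. After Olfr220, 609 kb away, Rgs7, a regulator of G protein signalling, fell from 14.9 to 5.22 FPKM.

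**Figure D4:**
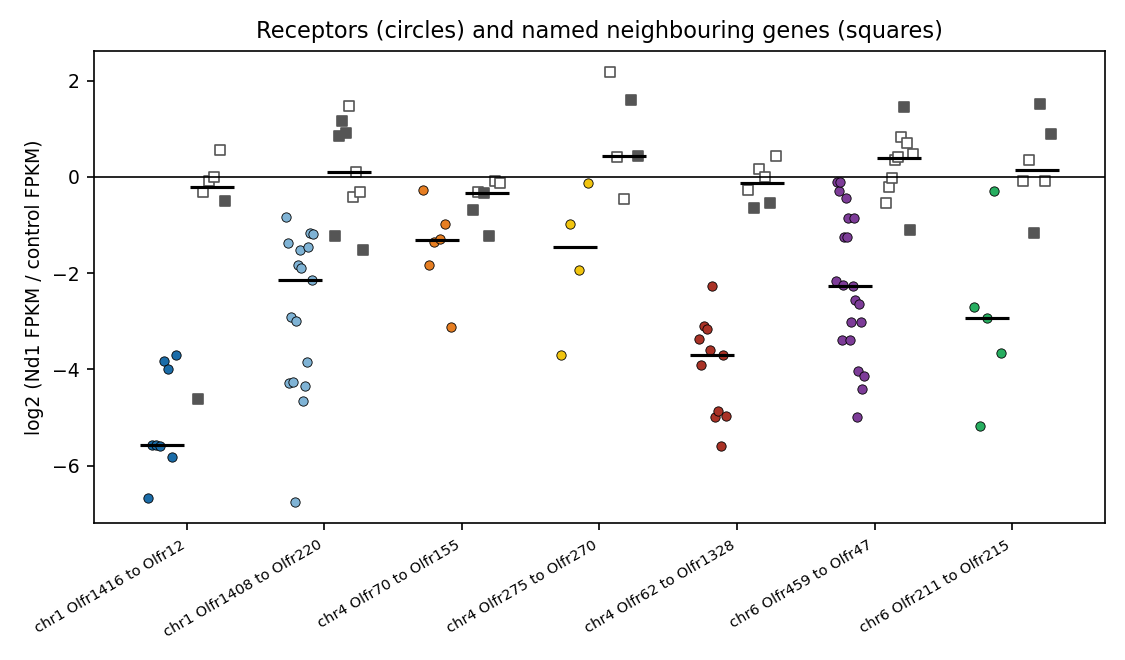
Log2 ratio of Nd1 over control FPKM (y axis) for tested receptors (circles) and tested named loci inside or beside them (squares, filled where q is under 0.05 in the authors' table) in each of the 7 clusters, with lines at the medians. Receptor medians run from -5.57 to -1.32 while the neighbours' medians lie between -0.33 and 0.44.

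Genes that serve all receptors had medians closer to 0. Of 12 tested genes of transduction and receptor transport 10 fell and none rose, with a median log2 ratio of -0.55, where 19.2% of all tested loci fell and 15.1% rose. The authors' test failed for 3 further genes of this list, which the median leaves out. Gnal stood at 1672 FPKM in control against 924 in Nd1, Gnb1 at 1595 against 886 and Ric8b at 796 against 273. Their log2 ratios were -0.86, -0.85 and -1.54, all below that median. Besides Omp, whose alleles differ between the libraries, the phosphodiesterase Pde1c went from 243 to 118 FPKM. Of 14 tested genes of receptor choice and silencing 5 fell and 2 rose, with a median of -0.13, where 34.4% of all tested loci were called in either direction. The test failed for Ebf2, Ebf3, Ebf4 and Ehmt2, which this median leaves out. The stress factor Ddit3 fell from 55.9 to 23.7 FPKM and Atf5, a transcription factor of the receptor feedback signal, from 1404 to 780 FPKM. Emx2 (39.5 to 66.7 FPKM) and Ebf1 (108 to 166 FPKM), which encode transcription factors that bind near receptor genes, rose.

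Receptor genes are bound by homeodomain factors such as Lhx2 and by the Ebf family, and their motifs were looked for in RefSeq promoter windows (GRCm38.p6), which hold 250 bases before and 50 after each annotated start. A window was found for 67 of 79 symbols. For 56 of these the RefSeq model is at most 1100 bases long, about the length of a receptor's coding exon. Its annotated start may thus be the start codon, and the window may surround that codon and not the promoter. On either strand TAATTA was found in 13.4% of the 67 windows, TAATTG in 11.9% and the palindromic Ebf motif in 0. Over all 32851 windows of the table the shares were 5.29%, 8.0% and 0.904%. Over the 877 windows of other odorant receptors they were 19.0%, 24.1% and 0.570%.

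Of the 11 symbols with a longer model, Olfr1414 and Olfr1408 held TAATTG. The 250 bases before their starts are shown with those of Olfr70, which holds none of the motifs, with the motifs in capitals. They stand for a receptor of the steepest cluster, the smallest fall of the larger chromosome 1 cluster and a receptor that did not pass. All are read on the minus strand, from chr1:92518516-92518765, chr1:173137335-173137584 and chr4:43700808-43701057 of GRCm38.p6.
Olfr1414: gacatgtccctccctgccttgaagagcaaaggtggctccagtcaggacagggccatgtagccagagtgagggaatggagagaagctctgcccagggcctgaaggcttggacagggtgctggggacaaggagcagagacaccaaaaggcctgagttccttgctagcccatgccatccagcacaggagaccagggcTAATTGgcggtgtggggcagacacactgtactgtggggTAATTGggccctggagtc
Olfr1408: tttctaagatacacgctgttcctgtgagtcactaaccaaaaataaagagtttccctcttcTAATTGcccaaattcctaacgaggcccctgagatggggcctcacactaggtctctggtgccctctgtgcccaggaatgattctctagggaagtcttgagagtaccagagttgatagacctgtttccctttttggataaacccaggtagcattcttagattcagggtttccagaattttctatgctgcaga
Olfr70: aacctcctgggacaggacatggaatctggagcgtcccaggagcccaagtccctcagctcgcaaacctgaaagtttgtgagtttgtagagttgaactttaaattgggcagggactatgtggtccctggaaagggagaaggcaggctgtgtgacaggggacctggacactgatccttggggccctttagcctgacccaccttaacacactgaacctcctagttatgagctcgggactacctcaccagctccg
A match is a run of letters only, and its presence says nothing of binding in these cells.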

How the data were processed

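RNA of 4 libraries, 2 control and 2 Nd1 by their titles, was sequenced from sorted neurons. Reads were handled with Bowtie and Cuffdiff 1.3.0 on the build mm9, per the submitters' processing notes, while annotation and filters are unknown here. For 28168 loci the authors deposited an FPKM value pooled over each group, with their log2 fold change (treated as a score, since placeholders stand where a group is at 0), test statistic (a score), p-value and q-value. Of these loci 14841 were tested, 12711 not tested and 616 failed. No column holds a library's own values, so depth and replicate spread are unknown, no test was run here, and every call is the authors' at q under 0.05.

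Log2 ratios computed from the FPKM values equal the listed ones within 1.38e-05. Coordinates are the table's on mm9, with 1 added to each start. Clusters join receptor loci at most 1 Mb apart. Protein identity had been planned and was replaced by nucleotide identity, for which reading frames of the shortest GENCODE M21 transcripts were aligned with edlib. Counts, medians, clustering and quantile normalization were tested on simulated data. Python 3.11.15, numpy 2.4.6, pandas 2.3.3 and matplotlib 3.10.9 were used.

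The members, lists and rules were chosen with earlier results of these data known. Named receptors were, per cluster, the 2 highest in control and, among tested loci that reached 1 FPKM in either group, the largest and smallest fall, and over all clusters the 8 highest in each group and the isolated loci. The other receptors are given to account for all 80 loci. Flanking genes were named where called and at least 1 FPKM in a group, at most 2 per cluster by size of change, and pathway genes as the 4 largest changes called and the 2 rises. Ndufa10, Myeov2 and Twist2 were named outside this rule, and pathway genes whose test failed are also given. Pairs of close copies were chosen after their values were seen. Alternatives were the q threshold, filters on level and fold, pseudocounts of 1 and 0.1, centring, quantile normalization and the cluster gap.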

Additional observations from a re-analysis of the deposited data

How the results depend on the processing

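No paired analysis was possible because the table holds 1 pooled value per group, and for the same reason no replicate could be left out. The 64 falls became 60 at q under 0.01, 57 with a mean of at least 1 FPKM and 60 with a fold of at least 2. The count of rises could only be 0 in each of these, since no value was higher in Nd1. The median log2 ratio of the receptors, -3.01, was -1.50 and -2.67 with pseudocounts of 1 and 0.1, -3.02 with a mean of at least 1 FPKM, -2.97 after centring on loci that are no odorant receptor and -2.74 after quantile normalization. The pseudocounts understate changes of weakly expressed receptors. All 7 clusters kept a median below 0 under these scalings, as did 8 of 8 at a gap of 0.5 Mb and 11 of 11 at 0.1 Mb, the latter added after seeing the data. With every locus lower in Nd1, only quantile normalization could have changed the sign of a cluster median. The summed Nd1 level over control was 0.222, 0.223 without the 5 highest receptors of control and 0.229 after centring. Olfr270 changed sign to 0.20 after quantile normalization. The 11 falls among flanking genes became 6 with a mean of at least 1 FPKM and 6 with a fold of at least 2, and the 17 called pathway genes became 3 at a fold of at least 2, since most of them changed by less. For 72 of the receptor loci, those under 1100 bases, the Nd1 value times length was set against a lowest step. This step is the lowest non-zero such product among all odorant receptor loci under 1100 bases. It was exceeded at most 3-fold by 6 loci, Olfr432, Olfr1329, Olfr275, Olfr1333, Olfr1402 and Olfr434, and 2 more were at 0. This limits how far steep ratios can be compared.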
